A study of Bos taurus with 10 samples.

Results

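Solute carriers are membrane proteins that move sugars, amino acids, fatty acids, ions and metals across cell and organelle membranes. They were measured here in the longissimus dorsi, the long back muscle, of Hanwoo, a Korean beef breed. A gene was taken as a member if the array's annotation gave its probe set exactly 1 symbol and that symbol was SLC, a number, a letter from A to G and a number. The mitochondrial SLC25A carriers were left out. This found 147 of 9155 named genes, from 40 families and 206 probe sets. Where a gene had several probe sets, the one with the highest mean stood for it. SLC8B1, a sodium and calcium exchanger of mitochondria, is included by that rule although the other mitochondrial carriers are not.

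Skeletal muscle of 10 animals was hybridized to 10 Affymetrix bovine arrays, 1 array per animal. The animals form 1 group with no treatment, genotype or time point in the labels, and an age of about 2 years is given for animal 1 alone. Nothing but the sample numbers marks the arrays as separate cattle, so the p-values below measure the spread between these samples. The study related expression to beef traits, and trait values were not used here.

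Muscle meets its fuel needs through a few well-known carriers. SLC2A4 (GLUT4) is moved to the surface by insulin and contraction and lets glucose in, and the monocarboxylate carriers SLC16A1 and SLC16A3 pass lactate. SLC6A8 brings in creatine, SLC22A5 brings in the carnitine needed for fatty acid oxidation, and the SLC7 and SLC38 families supply amino acids for protein synthesis. Other carriers sit in the Golgi apparatus, the endoplasmic reticulum or lysosomes, where they load sugars for glycosylation or return the products of digestion.

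Levels are log2(signal + 16) after quantile normalization, and 1 unit is a doubling except near background, where the added 16 shrinks differences. Each probe set binds its target with its own strength, so the levels of different genes are given without ranking them. The muscle label fits its markers: CKM stood at 15.90, ACTA1 at 15.64 and MB at 15.60. Of all named genes, 68.5% had a mean above the median probe set. Some markers of other cells were above it too, namely 13 of 17 adipocyte, 14 of 16 endothelial, 9 of 16 leukocyte and 15 of 18 connective tissue genes. So were ACTA2, MYH11 and RGS5 of smooth muscle and vessel walls, 2 of 3 liver genes, 1 of 3 red cell genes and the nerve gene S100B, but 0 of 2 gut genes and 0 of 1 kidney gene; what these cells add to any carrier's signal was not tested beyond the scores below. In whole tissue, fewer cells of a type and less RNA per cell cannot be told apart. The array of animal 5 stood apart, with a 3′ minus 5′ difference of the added poly(A) control RNAs of 2.67 against 0.78 to 1.06 in the other 9 animals. The hybridization controls, added in equal amount, spanned 10.93 in animal 2 to 12.91 in animal 1 before quantile normalization.

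Many carriers gave little signal in muscle. Of the 147 genes, 70 (47.6%) had a mean above that of the middle probe set on the array, a level of 6.98 or about 110 intensity units, against 68.5% of all named genes. The other 77 had means between 4.41 (SLC2A3) and 6.97 (SLC35E3). A dim probe set may bind its target poorly, so a level below this line does not show that the gene is silent. Of the 70 genes, 9 lay within 0.25 of the line.

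The share above the line differed by transport class. Nucleotide sugar carriers and others of the endoplasmic reticulum and Golgi membranes had 13 of 19 genes above it, and metal and haem carriers 14 of 21. These shares, 68.4% and 66.7%, were close to the 68.5% of all named genes. Amino acid and peptide carriers had 12 of 22. Chloride, bicarbonate and sulfate carriers had 7 of 12. At the other end stood the SLC6 family, classed under amines, creatine and taurine, with 1 of 10. SLC22 organic ion carriers had 1 of 8, and a sugar class had 4 of 15. Classes were made by family, so the sugar class holds the iodide carrier SLC5A5 and the vitamin carrier SLC5A6, both below the line. The SLC6 class likewise holds amino acid carriers such as SLC6A9, also below the line, which the amino acid class leaves out. The creatine carrier SLC6A8 and the carnitine carrier SLC22A5 were the only members of SLC6 and SLC22 above the line.

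**Figure D1:**
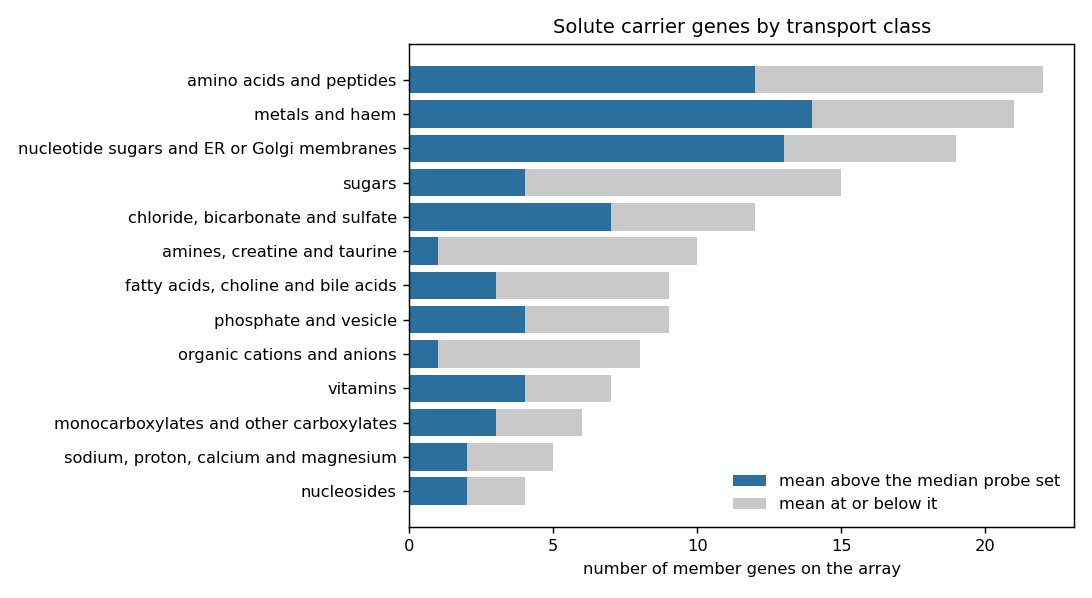
Number of solute carrier genes on the array in each of 13 transport classes (bars, in genes), split by whether the mean level over 10 animals was above the median probe set (blue) or not (grey). The amino acid and peptide class had 12 of 22 above it, the metal class 14 of 21, and the amine, creatine and taurine class 1 of 10. Of all named genes, 68.5% were above it. Classes were made by family.

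Carriers best known from other organs were mostly below the line. Of 19 such genes, a list written after the levels had been seen, 17 were below it. Of all 147 carriers 77 were below it, while 68.5% of all named genes were above it. The kidney carriers SLC12A1 and SLC5A2 stood at 4.91 and 5.07, the liver glucose carrier SLC2A2 at 5.79, the thyroid iodide carrier SLC5A5 at 4.55 and the red cell anion exchanger SLC4A1 at 4.52. The other two were SLC12A3, the thiazide-sensitive carrier of the kidney, and SLC18A2, which loads monoamines into vesicles and stood at 7.09, both within 0.25 of the line. Some carriers that muscle is known to use were also below it. The basal glucose carrier SLC2A1 stood at 6.90, the taurine carrier SLC6A6 at 5.66, the leucine carrier SLC7A5 at 6.10 and the sodium and calcium exchanger SLC8A1 at 6.25.

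Sugar and lactate carriers differed in how much they varied. SLC2A4 stood at 9.77 ± 0.26 (SD, n = 10), from 9.37 in animal 6 through a median of 9.76 to 10.30 in animal 4. The whole range of GLUT4 signal across the cattle was therefore 1.90-fold. SLC16A3 (MCT4), the lactate exporter of glycolytic fibres, stood at 10.99 ± 0.64, from 10.08 in animal 2 through a median of 10.79 to 12.33 in animal 6, a 4.75-fold range. SLC16A1 (MCT1), which also takes lactate up, stood at 8.48 ± 0.69, from 7.48 in animal 10 through a median of 8.63 to 9.35 in animal 5. The highest animal for one lactate carrier was not the highest for the other. SLC16A1 fell into higher and lower values with a gap between 8.37 in animal 6 and 8.89 in animal 4. SLC16A13, of the same family, had 7.78 ± 0.12, but its next probe set, at 7.71, had an SD of 0.44 and r = -0.49 with the first. SLC2A8 (GLUT8), an intracellular glucose carrier, stood at 7.65 ± 0.52 and was lowest in animal 8 at 6.45; its SD was 0.33 without that animal. SLC2A6, another intracellular hexose carrier, had 6.98 ± 0.65 at the very edge of the line.

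Among carriers for fat fuels, SLC27A6, a long-chain fatty acid carrier known from the heart, varied most. It stood at 8.66 ± 0.77, from 7.19 in animal 9 through a median of 8.84 to 9.44 in animal 10, a 4.77-fold range. Animals 5 and 9 were the only ones below 8. SLC27A1 (FATP1), a fatty acid carrier of muscle and fat that responds to insulin, stood at 8.15 ± 0.44, from 7.49 in animal 6 to 8.94 in animal 10. SLC22A5 (OCTN2), the carnitine carrier, stood at 8.88 ± 0.49, from 8.15 in animal 3 through a median of 8.78 to 9.94 in animal 5. The choline carrier SLC44A2 stood at 9.20 ± 0.30. Creatine uptake is the work of SLC6A8, which stood at 11.13 ± 0.43, from 10.41 in animal 3 through a median of 11.17 to 11.70 in animal 10.

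**Figure D2:**
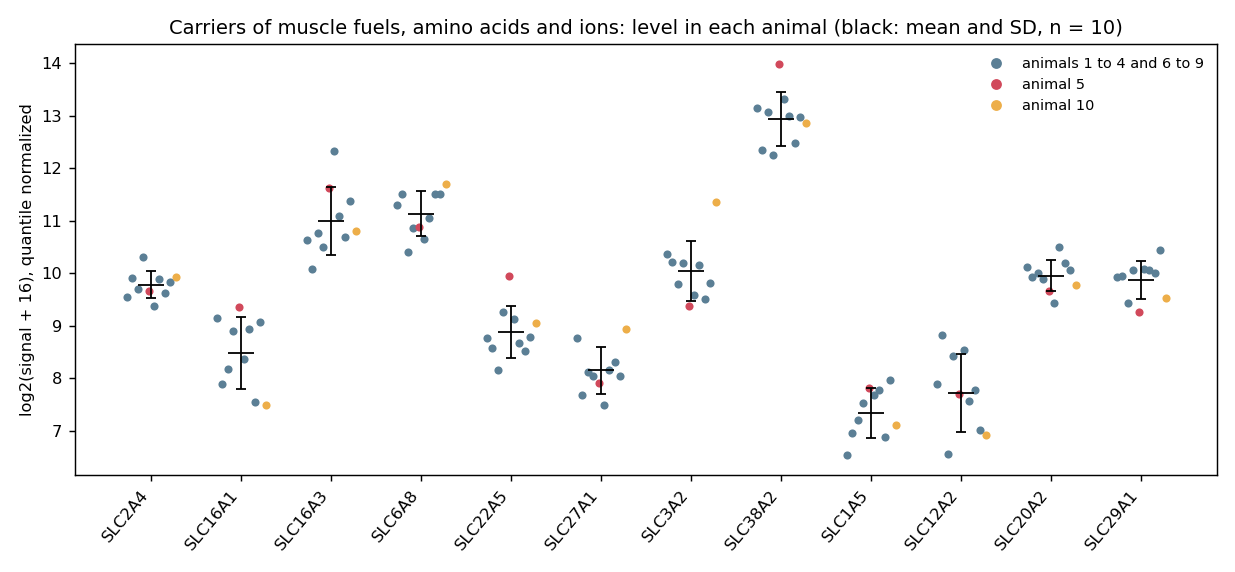
Level of 12 carriers of muscle fuels, amino acids and ions (x axis) in each of 10 animals, as log2(signal + 16) after quantile normalization (y axis). Each point is 1 animal, with animal 5 in red and animal 10 in orange, and black bars give mean and SD. SLC2A4 spans 9.37 to 10.30, SLC16A3 spans 10.08 to 12.33, and SLC38A2 and SLC22A5 have their highest point in animal 5.

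In the amino acid and peptide class of 22 genes, 12 were above the line and 3 of these had an SD over 0.5. Of all tested genes, 22.1% did. SLC38A2 (SNAT2), which takes up small neutral amino acids and is induced when they are scarce, stood at 12.94 ± 0.51, from 12.25 in animal 4 through a median of 12.98 to 13.99 in animal 5. Its deposited intensities ran from 4834 to 13502, and its SD was 0.38 without animal 5. SLC3A2 (4F2hc), the heavy subunit that carries several exchangers of the SLC7 family to the surface, stood at 10.03 ± 0.57, from 9.37 in animal 5 through a median of 9.99 to 11.36 in animal 10. Animal 10 was 0.99 above the next animal, and without it the SD was 0.36. SLC7A5, the light subunit that forms the leucine exchanger with SLC3A2, stayed under the line, and the pair was left out of the partner comparison by that filter. The glutamine carrier SLC1A5 (ASCT2) stood at 7.34 ± 0.48 and the cationic amino acid carrier SLC7A1 (CAT1) at 7.89 ± 0.32. SLC43A2 (LAT4), which lets large neutral amino acids out of cells, stood at 10.07 ± 0.39. Of the lysosomal carriers, SLC15A4, for histidine and peptides, stood at 9.74 ± 0.31, SLC38A7, for glutamine, at 8.12 ± 0.40 and SLC66A1, for cationic amino acids, at 8.42 ± 0.29.

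Ion and phosphate carriers included several of the largest SDs among the 70. SLC12A2 (NKCC1), which brings in sodium, potassium and chloride, stood at 7.72 ± 0.74, from 6.56 in animal 3 through a median of 7.73 to 8.83 in animal 2. Its other probe set, at 7.68 ± 0.52, followed it across the animals with r = 0.86 and rho = 0.92. The sodium bicarbonate carriers SLC4A4 and SLC4A7 stood at 7.05 ± 0.74 and 8.10 ± 0.65, and neither had another probe set. SLC4A4 was lowest in animal 6 (5.76) and highest in animal 10 (8.02), while SLC4A7 was lowest in animal 1 (6.95) and highest in animal 3 (9.09). The chloride and bicarbonate exchanger SLC4A2 stood at 7.33 ± 0.53. SLC20A1 (PiT-1), a sodium phosphate carrier, stood at 9.92 ± 0.67, from 9.16 in animal 9 through a median of 9.69 to 11.50 in animal 2. Animals 2 and 10, at 11.50 and 10.57, were the only ones above 10, and without animal 2 the SD was 0.39. Its relative SLC20A2 (PiT-2) stood at 9.95 ± 0.29. SLC9A5, a sodium and proton exchanger, stood at 8.64 ± 0.59.

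Zinc carriers held the largest SD among the 70 carriers above the line. SLC39A11 (ZIP11) stood at 7.32 ± 1.02, with 4.72 in animal 10, 6.65 in animal 1 and 7.12 to 8.20 in the other 8. Without animal 10 its SD was 0.49. SLC39A7 (ZIP7), which releases zinc from the endoplasmic reticulum, stood at 7.29 ± 0.63 and was also lowest in animals 10 (6.11) and 1 (6.40). SLC66A2 showed the same pair at its low end, 5.91 and 6.89, with a mean of 7.46 ± 0.62 and an SD of 0.33 without animal 10. These 3 genes were set together after their values had been seen. Animals 1 and 10 had the highest hybridization control levels, 12.91 and 12.90, followed by animal 6 at 12.75. In limma the slopes of SLC39A11, SLC39A7 and SLC66A2 per SD of that level were -0.42, -0.36 and -0.28, all with adjusted p = 0.994. Their negative sign follows from how the genes were picked, so these slopes are no separate evidence. SLC39A9 was also lowest in animals 10 (7.12) and 1 (7.36). Other carriers, SLC39A13 (10.48 and 10.39) and SLC27A1 among them, were highest in animals 10 and 1.

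Other metal carriers varied less. SLC39A14 (ZIP14), which takes up zinc and iron, stood at 8.66 ± 0.49 and was highest in animal 7 at 9.72. The copper carriers SLC31A1 and SLC31A2 stood at 9.25 ± 0.35 and 10.17 ± 0.22. SLC31A1 was highest in animal 7 at 10.05, with 9.39 the next value, and its SD was 0.22 without animal 7. SLC39A13 (ZIP13), a zinc carrier of vesicles and the Golgi apparatus, stood at 10.05 ± 0.24. The iron carrier SLC11A2 (DMT1) stood at 7.33 ± 0.45, with 8.35 in animal 5 and 6.83 to 7.53 in the other 9. SLC30A5 and SLC30A6 form a zinc carrier of the secretory pathway. SLC30A5 was among the steadiest members at 8.36 ± 0.17, while SLC30A6 stood at 7.92 ± 0.55, from 7.24 in animal 9 to 9.05 in animal 5.

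**Figure D3:**
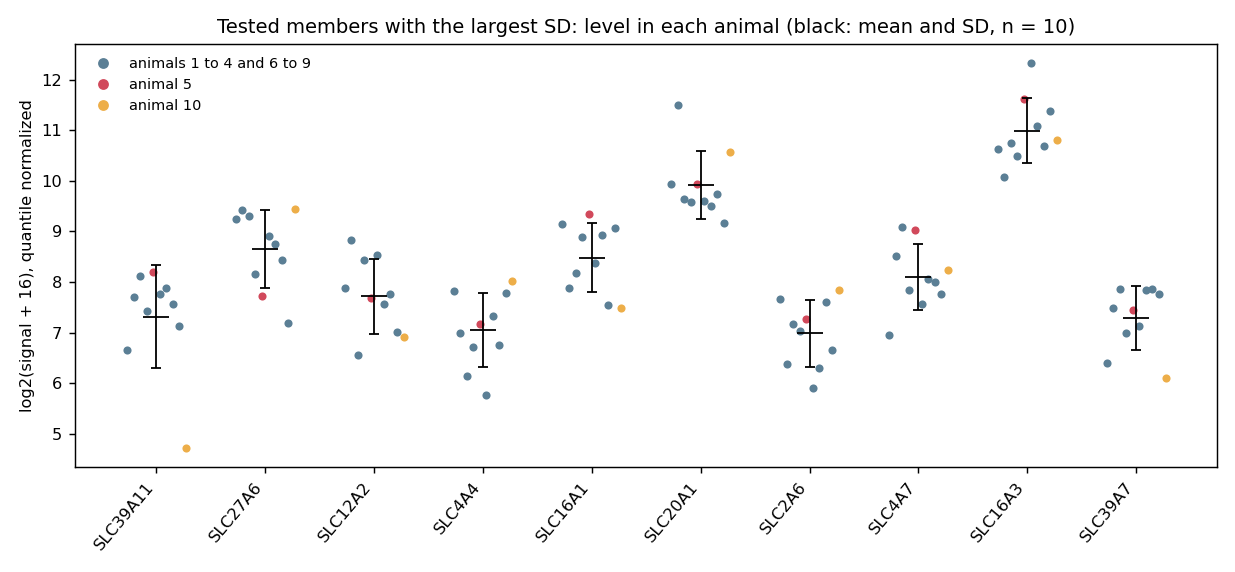
Level of the 10 carriers with the largest SD among the 70 above the line (x axis) in each of 10 animals, as log2(signal + 16) after quantile normalization (y axis). Each point is 1 animal, with animal 5 in red and animal 10 in orange, and black bars give mean and SD. SLC39A11 has 1 point at 4.72 in animal 10, and SLC20A1 has its highest point, 11.50, in animal 2.

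The 13 carriers of nucleotide sugars and internal membranes had a median SD of 0.32. The 2 nucleoside carriers had 0.40, against 0.36 over all tested genes. SLC29A1 (ENT1), which passes adenosine, stood at 9.87 ± 0.36, and SLC29A2 (ENT2) at 10.11 ± 0.45. SLC29A2 was highest in animal 9 at 11.27, against at most 10.34 in any other, and its SD was 0.19 without animal 9. By their brightest probe sets, none of the 11 SLC35 genes above the line had an SD over 0.5, against 22.1% of all tested genes. Their median SD was 0.30. The next probe sets of SLC35A5 and SLC35A4, at 8.14 and 9.43, had SDs of 0.58 and 0.35. SLC35B2, which brings the sulfate donor PAPS into the Golgi apparatus, had 8.80 ± 0.18, or an SD of 0.11 without animal 5, and SLC35A4 and SLC35G1 had 9.53 ± 0.17 and 8.30 ± 0.18. SLC35B1, a carrier of the endoplasmic reticulum, stood at 10.59 ± 0.44, with 9.42 in animal 5 and 10.45 to 10.95 in the other 9, and its SD was 0.16 without animal 5. SLC37A4, which carries glucose 6-phosphate into the endoplasmic reticulum, stood at 9.32 ± 0.45. SLC33A1, which imports acetyl-CoA there, stood at 9.43 ± 0.32. Among vitamin carriers, the riboflavin carrier SLC52A2 stood at 8.37 ± 0.44 with a further probe set at 7.92 and r = 0.87 between them, and SLC46A3 stood at 8.59 ± 0.20.

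The spread of the carriers was set beside that of all genes. The median SD of the 70 was 0.40, against 0.36 over all tested genes, and 18 of them (25.7%) had an SD over 0.5, against 22.1% of all tested genes. Without animal 5, 17 of the same 70 (24.3%) and 14.5% of all tested genes did, with medians of 0.34 and 0.31. By class the median SD ran from 0.32 in 13 carriers of nucleotide sugars and internal membranes to 0.53 in 7 carriers of chloride, bicarbonate and sulfate and 0.64 in 3 monocarboxylate carriers. These counts are descriptions with no test.

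Pairs of carriers correlated about as often positively as negatively, as did pairs of all tested genes. Over the 2415 pairs of the 70 genes, 50.9% had a positive r across the 10 animals, against 50.4% of all gene pairs. The median r was 0.01, against 0.00. Of the carrier pairs, 1.28% had r beyond 0.8 in either direction, against 2.28% of all gene pairs. Without animal 5 the shares were 1.61% and 1.45%. All pairs share the same 10 arrays, and these values are a description.

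Extreme values were spread unevenly over the animals and were most frequent in animal 5. Animal 5 gave the highest value for 16 and the lowest for 11 of the 70 carriers, 38.6% in all, against 48.6% of all tested genes. Animal 6 gave 21 extremes (30%, against 22.5% of all tested genes), 13 of them low, and animal 10 also gave 21 (30%, against 22%).

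**Figure D4:**
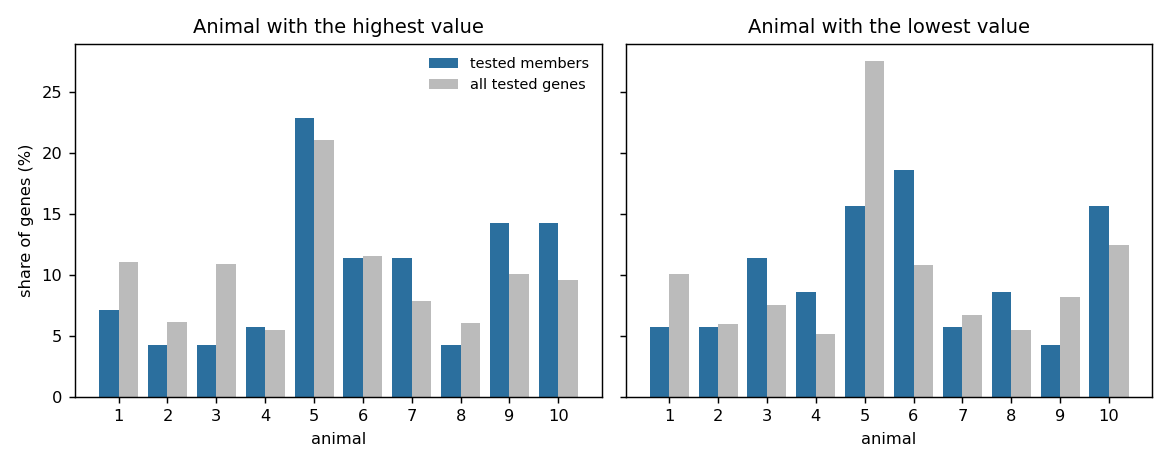
Share of genes (y axis, %) whose highest value (left) or lowest value (right) over 10 arrays was in each animal (x axis), for the 70 tested carriers (blue) and all tested genes (grey). Animal 5 holds 22.9% of the carriers' highest values and 15.7% of their lowest, against 21.1% and 27.6% over all genes.

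To ask which carriers tracked the cell makeup and state of the muscle, each tested gene was fitted in limma against 5 scores. A score is the mean deviation, in each animal, of a list of genes that holds no solute carrier, and slopes are log2 units per SD of the score. No carrier passed the adjusted threshold of 0.05 in any fit. Of the 70, 4 had an unadjusted p below 0.05 with the adipocyte score, 4 with the connective tissue score, 8 with the leukocyte score, 4 with the endothelial score and 11 with the amino acid response score. These are 5.71%, 5.71%, 11.4%, 5.71% and 15.7% of the carriers, against 8.55%, 8.54%, 15.8%, 5.45% and 25.5% of all tested genes. Over all genes the adjusted calls were 1 (0.016%), 5 (0.0799%), 18 (0.287%), 0 (0%) and 233 (3.72%). An exact Spearman test per gene also called 0 carriers, with 5, 7, 4, 3 and 6 at an unadjusted p below 0.05, against 7.94%, 7.56%, 6.64%, 4.73% and 12.8% of all tested genes.

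**Figure D5:**
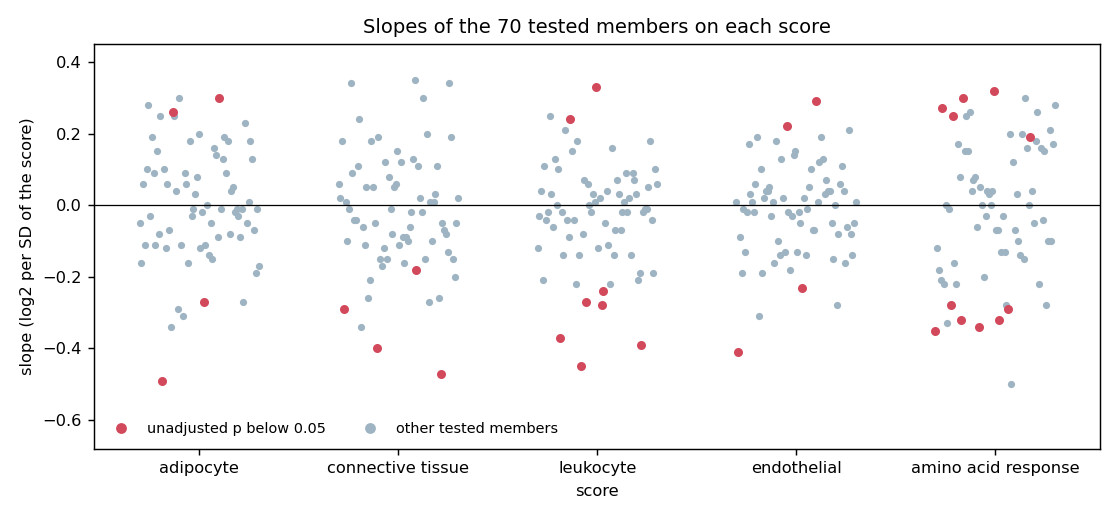
Slope of each of the 70 tested carriers (points; y axis, log2 units per SD of the score) on 5 scores (x axis). Points in red have an unadjusted limma p below 0.05, 4, 4, 8, 4 and 11 from left to right, and none passed the adjustment over all genes.

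With the adipocyte score, made from 13 fat cell genes such as FABP4, the smallest p belonged to the phosphate carrier SLC20A1 at -0.49 (SE 0.14, limma adjusted p = 0.317); the slope was -0.34 without animal 2. The adenosine carrier SLC29A1 (0.26), SLC39A14 (0.30) and SLC2A8 (0.30) had the smallest p among positive slopes, with limma adjusted p = 0.506, 0.554 and 0.583; that of SLC39A14 was 0.19 without animal 7. The fatty acid carrier SLC27A6 had a slope of -0.34 (SE 0.21, adjusted p = 0.653) and the glucose carrier SLC2A4 one of 0.04 (SE 0.10, adjusted p = 0.927).

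The connective tissue score, from 15 collagen and matrix genes, gave its smallest p to the bicarbonate carrier SLC4A4 at -0.47 (SE 0.17, limma adjusted p = 0.396), SLC2A6 at -0.40 (adjusted p = 0.45) and the potassium and chloride carrier SLC12A4 at -0.29 (adjusted p = 0.464). SLC66A2 and the lactate exporter SLC16A3 each had 0.34 and SLC39A9 had 0.20, with adjusted p from 0.601 to 0.623 in limma. Animal 6 had the highest score, and without it the slope of SLC4A4 was -0.24, that of SLC2A6 -0.22 and that of SLC16A3 0.03. That of SLC66A2 was 0.20 without animal 10.

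The leukocyte score, from 9 genes, was lowest in animal 5 at -1.88 SD. The zinc carrier SLC30A6 had -0.45 (SE 0.11, limma adjusted p = 0.116), and -0.26 without animal 5. SLC35B1 had 0.33 and SLC33A1 -0.27, both with limma adjusted p = 0.217, and both had their most extreme value in animal 5; without it their slopes were 0.08 and -0.15. SLC29A1 (0.24, adjusted p = 0.271) and SLC4A7 (-0.39, adjusted p = 0.276) came next, and without animal 5 their slopes were 0.14 and -0.25. SLC66A3 (0.18, adjusted p = 0.386) had the third smallest p among positive slopes, and its slope was 0.07 without animal 6. With the endothelial score, from 14 genes, the smallest p belonged to the sialic acid carrier SLC35A1 (0.22), SLC39A14 (0.29), SLC35F6 (-0.23) and SLC12A2 (-0.41), all with limma adjusted p = 0.892. Without animal 7 the slopes of SLC35A1 and SLC39A14 were 0.12 and 0.10, without animal 5 that of SLC35F6 was -0.15, and without animal 2 that of SLC12A2 was -0.23.

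The amino acid response score was made from 13 genes that cells induce when amino acids run short, among them ATF4, DDIT3 and PSAT1. It is a weak measure here, since its SD was 0.15 and 8 of its 13 genes had a positive slope on the score made without them, 0 of them past the test. The endothelial score was weak too, with an SD of 0.17 and 0 of its 14 genes past that test. Of the adipocyte, connective tissue and leukocyte score genes, 1 of 13, 1 of 15 and 2 of 9 passed it. On the amino acid response score, animal 5 stood at -2.11 SD and the others between -0.66 and 1.14. SLC15A4 (0.27, limma adjusted p = 0.0566), SLC11A2 (-0.35, adjusted p = 0.0619), SLC35B1 (0.32, adjusted p = 0.0839), SLC35F5 (-0.32, adjusted p = 0.0869), SLC26A11 (0.30, adjusted p = 0.0961) and SLC38A7 (-0.29, adjusted p = 0.101) had the smallest p. Of these, SLC11A2 and SLC35F5 passed without animal 4 and SLC35B1 without animal 6, while 0 carriers passed without animal 5, where SLC35B1 had 0.04, SLC11A2 -0.15, SLC35F5 -0.12, SLC15A4 0.17, SLC26A11 0.14 and SLC38A7 -0.18. SLC38A2, the amino acid carrier that this response is known to induce, had -0.28 (SE 0.14, limma adjusted p = 0.223), and SLC3A2 had 0.30 (SE 0.15, adjusted p = 0.238). Animal 5, with the lowest score, also had the highest level of SLC38A2 (13.99) and the lowest of SLC3A2 (9.37). It is also the array with the poly(A) control difference of 2.67, and SLC38A2 rose with that difference (limma adjusted p = 0.0358). In animal 5 the low score and the array's quality cannot be told apart.

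Array quality was fitted in the same way. With the 3′ minus 5′ difference of the poly(A) controls, 6 of the 70 carriers passed in limma, against 15.5% of all tested genes; this fit was chosen after the array of animal 5 had been seen. SLC38A2 (0.39, adjusted p = 0.0358), SLC22A5 (0.38, adjusted p = 0.031), SLC11A2 (0.36, adjusted p = 0.0268) and SLC35F5 (0.34, adjusted p = 0.0356) rose. SLC35B1 (-0.40, adjusted p = 0.00469) and SLC39A1 (-0.30, adjusted p = 0.0371) fell. In all 6, the value of animal 5 lay outside the range of the other 9, and without animal 5 none passed. Animal 5 was highest or lowest in 48.6% of all tested genes. The control difference mostly sets animal 5 apart, so a gene that passes on it would tend to be extreme there. The 2 probe sets of SLC22A5 had r = 0.06 over all 10 animals and 0.34 without animal 5. Those of SLC38A2 had 0.54 and 0.78. With the hybridization control level 0 carriers passed in limma, and 0% of all tested genes were called. At an unadjusted p below 0.05 were 4 carriers (5.71%) and 4.54% of all tested genes.

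Proteins that carriers need as partners were compared in 4 pairs with both genes above the line, out of 15 listed. Basigin (BSG), the chaperone of the lactate carriers, had r = 0.403 with SLC16A3 over 10 animals (permutation p = 0.248, or 0.496 adjusted; rho = 0.394 with permutation p = 0.264, or 0.813 adjusted), and r = 0.419 without the 2 animals farthest from the median. With SLC16A1 it had r = 0.195 (permutation p = 0.589, also after adjustment; rho = 0.030 with permutation p = 0.946, also after adjustment), and r = -0.273 without the 2 farthest. The zinc carrier subunits SLC30A5 and SLC30A6 had r = 0.537 (permutation p = 0.111, or 0.443 adjusted; rho = 0.248 with permutation p = 0.491, or 0.813 adjusted); r was -0.042 without the 2 farthest and 0.062 without animal 5. SLC2A4 and MEF2A, a transcription factor of its gene, had r = -0.195 (permutation p = 0.557, or 0.589 adjusted; rho = -0.188 with permutation p = 0.61, or 0.813 adjusted), and r = -0.039 without the 2 farthest. None of the 4 pairs passed these two-sided tests.

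Probe sets of 1 gene did not always follow each other. Of the 70 carriers, 20 had several probe sets. The brightest and the next had r of 0.87 for SLC52A2, 0.74 for SLC39A13, 0.69 for SLC44A2, 0.63 for SLC6A8 and 0.61 for SLC16A3. For SLC37A4, SLC35A4 and SLC35A2 it was -0.03, 0.11 and -0.33. When a gene's probe sets were averaged, the level of SLC38A2 was 10.75, that of SLC16A3 8.74, that of SLC6A8 10.21 and that of SLC22A5 8.20.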

How the data were processed

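The authors deposited a linear intensity for every probe set on each array. Which software made it was not given in the sources used here. Per the labels' protocols, Trizol RNA was purified to poly(A) RNA and biotin labelled. All 10 columns were used. Of 24128 probe sets, 112 controls were left out; of the others 13292 had 1 symbol, 86 several and 10638 none listed. All 147 member symbols matched the ARS-UCD2.0 gene table and 0 changed.

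Intensities became log2(signal + 16), quantile normalized. Genes with a mean above the median probe set were tested. Covariation used limma version 3.58.1 in R version 4.3.3, Benjamini-Hochberg adjusted over all tested genes at 0.05, and was tested on simulated data. Score genes were fitted against the score without them and not counted. Pairs used 100000 resamples, adjusted over 4 pairs. The poly(A) control difference is the mean log2 of the 3′ minus the 5′ probe sets of dap, lys, phe and thr. Named genes are, among tested members, those past the threshold in a score fit or, where fewer than 3 passed, the 3 smallest p in each direction, the 10 largest and 5 smallest SDs, the highest mean and largest SD per class, a list of muscle carriers and the partner pairs, 48 members in all. Members named beyond these were chosen after their values were seen. The members and lists were chosen with earlier results of these data known. Values without animal 5 were normalized again. The number of arrays limits the precision.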

Additional observations from a re-analysis of the deposited data

Results flagged for a closer look

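Of the 70 carriers above the line, 8 (11.4%) had 1 animal far from the other 9, past the critical value of Dixon's gap test. The share over all tested genes was 16.7%, and chance flags about 1 in 20 groups of normally distributed values. SLC35B1 was 9.42 in animal 5, against 10.45 to 10.95 elsewhere. SLC11A2 was 8.35 in animal 5, with 7.53 next. SLC39A11 was 4.72, SLC66A2 5.91 and SLC3A2 11.36 in animal 10, with 6.65, 6.89 and 10.37 next. SLC29A2 was 11.27 in animal 9, with 10.34 next, SLC31A1 was 10.05 in animal 7, with 9.39 next, and SLC2A8 was 6.45 in animal 8, with 7.27 next.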

How the results depend on the processing

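Alternatives were the deposited scaling, median centring, pseudocounts of 1 and 64, no filter on low values, a stricter filter (75th percentile), averaged probe sets, 2 array measures as covariates (the hybridization level was added after seeing the data, as were SDs without an animal for carriers outside the naming rule), a Spearman test and each animal left out. The stricter filter left too few leukocyte genes for that score. With an animal left out, 0 carriers passed on the adipocyte, connective tissue, leukocyte and endothelial scores and on the hybridization level, and 0 to 2 on the amino acid response score (2 without animal 4, 1 without animal 6). On the poly(A) control difference 0 (without animal 5) to 8 passed, and 3 with median centring. The number of tested carriers was 147 with no filter, 24 with the stricter one and 68 to 72 with an animal left out; those with an SD over 0.5 were 79, 4 and 15 to 19. Their median SD was 0.54 with no filter, 0.34 with a pseudocount of 64 and 0.34 to 0.41 with an animal left out. With averaged probe sets the correlation of BSG with SLC16A1 reversed to -0.438 and the correlation of SLC2A4 with MEF2A to 0.229; the latter was 0.107 with median centring. With an animal left out these pairs ran from -0.021 to 0.425 and from -0.326 to 0.099, BSG and SLC16A3 from 0.307 to 0.609, and SLC30A5 and SLC30A6 from 0.062 to 0.725. The cause was not tested. Of the named slopes under these alternatives, none changed sign and 3 came to pass the test. The SD of SLC39A11 was 0.65 with a pseudocount of 64 and that of SLC35G1 0.31 with averaged probe sets. For the probe set of SLC16A13 used above, the SD was 0.10 without animal 3. No paired analysis was possible because the labels give 1 group.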
